A study of Mus musculus with 12 samples.

Results

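Primary mouse oligodendrocyte progenitor cells treated with hemin, interleukin-10 (IL-10) and stattic together were compared with cells that received vehicle, across all genes measured by RNA-seq. The comparison used 6 of the 12 libraries of the study, 3 for each of these groups, chosen by their labels. All groups were wild-type brain progenitors in primary culture, treated for 12 h. The vehicle group received DMSO. The group called the stattic group here received stattic at 2.5 µM together with hemin at 50 µM and IL-10 at 10 ng/mL. The other 6 libraries, 3 with 50 µM hemin and 3 with 50 µM hemin and 10 ng/mL IL-10, entered the estimate of the spread and a direct comparison at the end. No group of the 4 received stattic or IL-10 without hemin, so in the difference from vehicle the parts of the 3 agents cannot be told apart. Nothing in the labels ties the replicates to separate cultures or animals, so the p-values measure only the spread between these libraries, which may be technical.

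Oligodendrocyte progenitors are dividing glial cells that express Pdgfra and Olig2 and mature into myelin-forming oligodendrocytes. Hemin is the oxidised form of heme. Cells break heme down with heme oxygenase-1 (Hmox1) to biliverdin, carbon monoxide and iron, store the iron in ferritin, and switch on antioxidant genes through the factor NRF2 when the repressor BACH1 binds heme. IL-10 acts through a receptor of 2 chains and Janus kinases on the factor STAT3, which induces its own feedback inhibitor Socs3. Stattic is a small molecule that inhibits STAT3.

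Expected counts (read numbers per gene as estimated by the authors' software) summed to between 9680790 and 10075370 in the vehicle libraries and between 9516155 and 10266653 in the stattic group. Of the 18876 genes listed in any library, 13967 had enough counts to be tested. All 25 progenitor markers, among them Pdgfra, Olig2 and Sox10, were above 1 CPM (counts per 1000000, scaled as described under processing) in each library of both groups. Markers of other cells were present in vehicle too. The astrocyte list summed to 7548, 6089 and 3066 CPM in vehicle replicates 1, 2 and 3, and Gfap, the astrocyte filament gene, stood at 2556, 2149.9 and 36.4 CPM, low in replicate 3. The microglia and macrophage list summed to 66.2, 72.5 and 31.6 CPM. In bulk RNA such as this, fewer cells of a type and less RNA per cell cannot be told apart.

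One library stood apart. Counts of stattic replicate 3 leaned towards short transcripts. With tested genes put in 5 equal groups by transcript length, the median difference from the vehicle mean in this library was 1.13 on the log2 scale for the shortest group, whose middle gene had 1322 bases, and -0.86 for the longest, at 6687 bases. For stattic replicate 1 these medians were 0.13 and -0.14, and for stattic replicate 2 they were 0.27 and -0.13. The slope was -0.72 log2 units per doubling of length in replicate 3, against -0.14 and -0.17 in replicates 1 and 2 and -0.03 to 0.04 in the vehicle libraries. The other hemin libraries ranged from -0.36 to -0.08. All 3 stattic slopes were thus below the 3 vehicle slopes, for which an exact two-sided permutation test gave p = 0.1, the smallest value that 3 libraries against 3 allow.

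Other measures set stattic replicate 3 apart in the same way. Each file gives a gene's length as averaged over the transcripts assigned to it. Compared were 8956 genes with an average length that differed between libraries. In replicate 3, 10.5% of them had a length at least 10% below the vehicle mean, taken on the log2 scale. The share was 4.41% and 6.03% in replicates 1 and 2 and 0.51% to 0.61% in the vehicle libraries, which are part of that mean. The mean length behind a count was 2821 bases in replicate 3, 3730 and 3708 bases in replicates 1 and 2, and 4115 to 4199 bases in vehicle. Ribosomal protein genes took 9.76% of its counts, 3.92% and 5.38% of those of the other stattic replicates, and 2.67% to 3.14% in vehicle. Replicate 3 was the farthest from the group median in 49.1% of tested genes, against 25.9% and 25.1% for replicates 1 and 2. The median SD of a gene's log2 CPM was 0.55 in the stattic group, 0.32 over its replicates 1 and 2, and 0.20 in vehicle. A median SD over 2 libraries is not directly comparable with that over 3. Whether RNA quality had a part in this was not tested. Results that rest on this library are given with and without it, and with each library's trend over length taken out (called length correction).

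**Figure D1:**
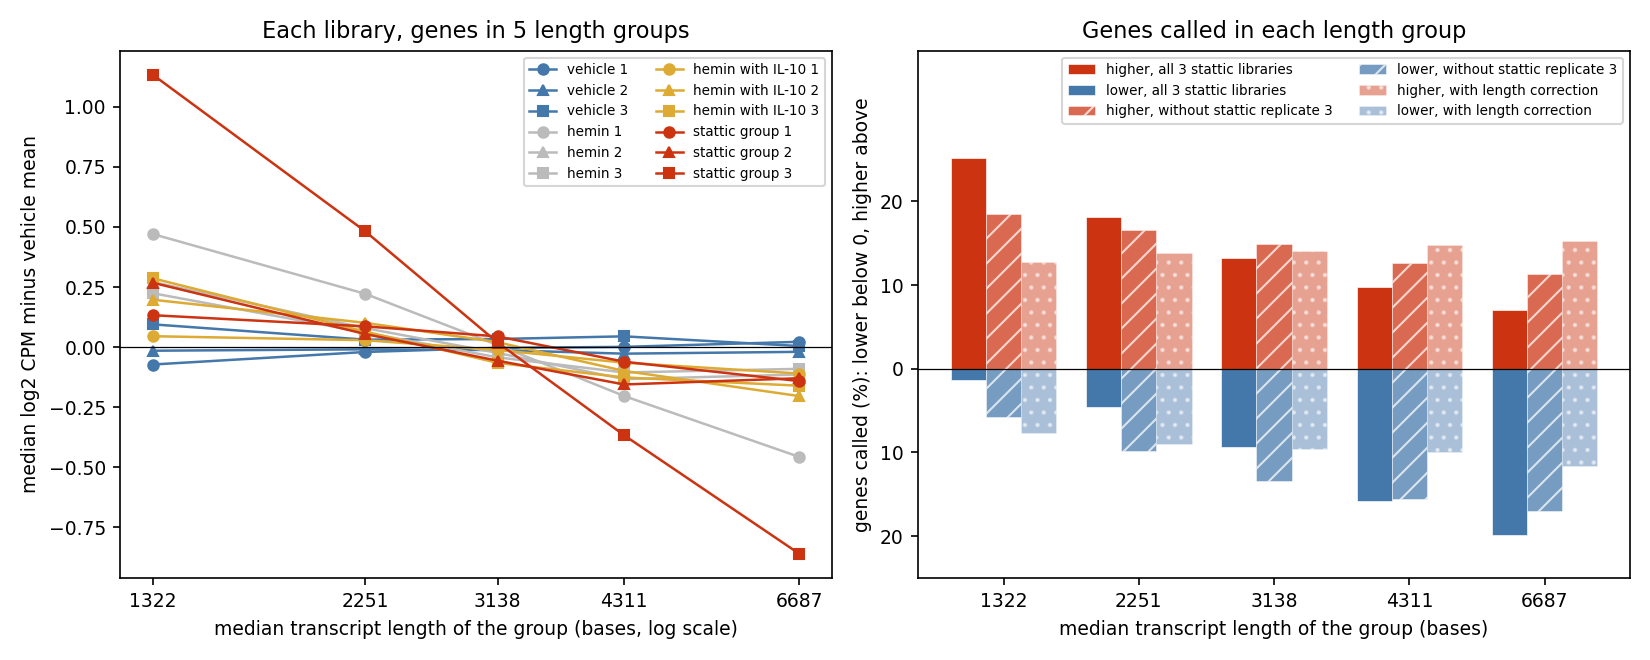
Left, each line is 1 library, the horizontal axis is the median transcript length of 5 gene groups in bases (log scale) and the vertical axis the median log2 difference from the vehicle mean. Stattic replicate 3 runs from 1.13 to -0.86, and the other lines lie between 0.47 and -0.46. Right, bars give the percentage of genes called higher (above 0) or lower (below 0) in each length group with all libraries, without stattic replicate 3, and with length correction.

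The stattic group and vehicle differed in 3472 of 13967 genes (24.9%) at an adjusted p under 0.05 (edgeR's quasi-likelihood test, p-values adjusted after Benjamini and Hochberg, here and below). Of these, 2048 (14.7% of genes tested) were higher with hemin, IL-10 and stattic and 1424 (10.2%) were lower. Large changes were mostly rises, with 477 genes at least 8-fold higher and 18 at least 8-fold lower among the called. The groups did not overlap, with all 3 stattic libraries above all 3 vehicle libraries, in 3000 genes (21.5%), and the reverse held in 2735 (19.6%). No counts were found in any vehicle library for 17 genes that reached at least 1 CPM in each stattic library, and 0 genes showed the reverse.

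The number of calls moved with single libraries. When vehicle replicates 1, 2 and 3 were left out in turn, 916, 1152 and 1026 genes were higher and 692, 876 and 732 lower. Each is below the count with all libraries, so the count of a list below in these fits is to be read beside these numbers. Leaving out stattic replicate 3 gave 2140 higher and 1724 lower. Genes called in the fit with all libraries and in each of the 6 fits without 1 library numbered 760 higher and 572 lower. The median log2 change of all tested genes was 0.10, and scaling by library totals moved it to -0.14 and the share of calls that were higher from 59.0% to 39.0%. With the authors' FPKM values in place of counts the share was 28.8%. In genes with the shortest transcripts 25.2% were called higher and 1.40% lower, and in those with the longest 7.02% and 19.8%. Length correction brought these to 12.7% and 7.73%, and to 15.2% and 11.6%.

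Hmox1, of heme breakdown, and Ftl1, of iron storage, were among the 6 named genes with the largest rises in mean CPM. Hmox1 stood at 37.6, 55 and 24.5 CPM in vehicle replicates 1, 2 and 3 and at 9896, 3436 and 3029.6 CPM in the stattic replicates (log2 change 7.13, SE 0.83, adjusted p = 0.000441). Replicate 1 was about 3 times either of the others, and the lowest stattic library was far above the highest vehicle one. Slc40a1, which encodes the iron exporter ferroportin, was barely detected in vehicle at 0.186, 0.183 and 0.0952 CPM and reached 20.1, 24.4 and 15.2 CPM (log2 change 6.89, adjusted p = 0.000205). The ferritin chains rose from a higher base. Ftl1, the light chain, went from 855, 968 and 779.7 to 6467, 5152 and 4444 CPM (log2 change 2.63, SE 0.42, adjusted p = 0.00210). Fth1, the heavy chain, went from 454, 430.1 and 312 to 2717, 1005 and 2037 CPM (log2 change 2.27, adjusted p = 0.00830). Both chains were higher in each stattic library than in any vehicle library. Tfrc, the transferrin receptor that brings iron into cells, overlapped between the groups at 72.2, 86.8 and 139 against 86.6, 109.8 and 119.9 CPM (log2 change 0.08, adjusted p = 0.872).

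Over the heme and iron list, 8 of 29 tested members rose and 1 fell, beside 14.7% and 10.2% of all genes. The median log2 change was 0.29, beside 0.10 for all genes. Beside the 4 genes above, the members that rose were Blvrb, a biliverdin reductase (8.81, 12.1 and 7.24 to 112, 19.3 and 44.2 CPM, adjusted p = 0.0223), Abcb6, a porphyrin transporter, Pcbp1, an iron chaperone, and Steap3, an iron reductase (adjusted p = 0.0392, 0.0431 and 0.0388). The member that fell was Alas1, the rate-limiting enzyme of heme synthesis, at 40.6, 36.5 and 44.3 CPM in vehicle and 26.5, 17.8 and 26.8 CPM in the stattic group (log2 change -0.77, adjusted p = 0.0497). Later enzymes of the synthesis, among them Alad (log2 change 0.29), Urod (log2 change 0.29) and Fech (log2 change -0.17), did not pass the test. Blvrb, Abcb6, Pcbp1, Steap3 and Alas1 were named after their values were seen, to account for the count. Without vehicle replicates 1, 2 and 3 in turn, 4, 4 and 5 members were called higher and 0 lower. Without stattic replicates 1 or 2 there were 0 lower as well, so the call of Alas1 was lost in each of these fits. Leaving out stattic replicate 3 gave 3 lower. Scaling by library totals gave 5 higher and 3 lower.

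Of 28 tested antioxidant genes controlled by NRF2, 14 rose and 0 fell, beside 14.7% and 10.2% of all genes. The median log2 change was 1.42. Osgin1, an oxidative stress response gene, went from 1.48, 1.55 and 0.381 to 299.8, 37.4 and 50.8 CPM (log2 change 6.81, adjusted p = 0.00356). Slc7a11, the cystine importer that feeds glutathione synthesis, went from 14.9, 31.4 and 15.9 to 1489, 368 and 89.8 CPM (log2 change 4.97, SE 1.14, adjusted p = 0.0107). For these genes replicate 1 was the highest stattic library, several-fold above the lowest, yet the groups did not overlap. Replicate 1 was also the highest in the other hemin groups. There Slc7a11 stood at 767, 762 and 102 CPM with hemin and 1524, 898 and 156 CPM with hemin and IL-10. Osgin1 stood at 265, 211 and 37.6 CPM and at 245, 175 and 26.7 CPM. The reason was not tested. Without vehicle replicate 1 the adjusted p of Slc7a11 was 0.0508. Gclc, the catalytic subunit of the first enzyme of glutathione synthesis, varied less, from 70.1, 95.3 and 90.8 to 428, 288 and 213 CPM (log2 change 1.86, adjusted p = 0.00156). Maff, a small MAF partner of NRF2, went from 4.27, 6.49 and 6.57 to 111, 155 and 114 CPM (log2 change 4.45, adjusted p = 9.11e-06). With vehicle replicates 1, 2 and 3 left out in turn, 5, 8 and 6 members were called higher, and 8 were with stattic replicate 1 left out.

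Ferroptosis is the iron-dependent form of cell death driven by lipid peroxides. Among 21 tested regulators of it 7 rose and 0 fell, beside 14.7% and 10.2% of all genes. The list holds genes of both directions of the process. Acsl4, which loads membranes with oxidisable fatty acids, went from 34.9, 31.7 and 46 to 74.8, 102 and 79.2 CPM (log2 change 1.18, adjusted p = 0.0141). Leaving out vehicle replicates 1 and 2 took its adjusted p to 0.0574 and 0.0554. Gpx4, the enzyme that reduces lipid peroxides, was at 139.8, 141 and 138 CPM in vehicle and 186, 172 and 380.03 CPM in the stattic group (log2 change 0.82, adjusted p = 0.0546), with replicate 3 well above the other stattic libraries. Its log2 change was 0.35 without that replicate and 0.09 with length correction. Gch1, which starts the synthesis of the antioxidant cofactor tetrahydrobiopterin, went from 1.02, 0.366 and 1.43 to 9.64, 10.2 and 9.12 CPM (log2 change 3.35, adjusted p = 0.000897). Chac1, which degrades glutathione, rose by a log2 change of 4.67 (adjusted p = 4.66e-05), and Ptgs2, the inducible cyclooxygenase often used as a ferroptosis marker, by 7.50 (adjusted p = 0.00158). Ptgs2 was spread widely in the stattic group, at 291, 97.5 and 38.8 CPM, over 0.928, 1.19 and 0.190 CPM in vehicle. Without stattic replicate 1, 11 members of the list were called higher and 0 lower.

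**Figure D2:**
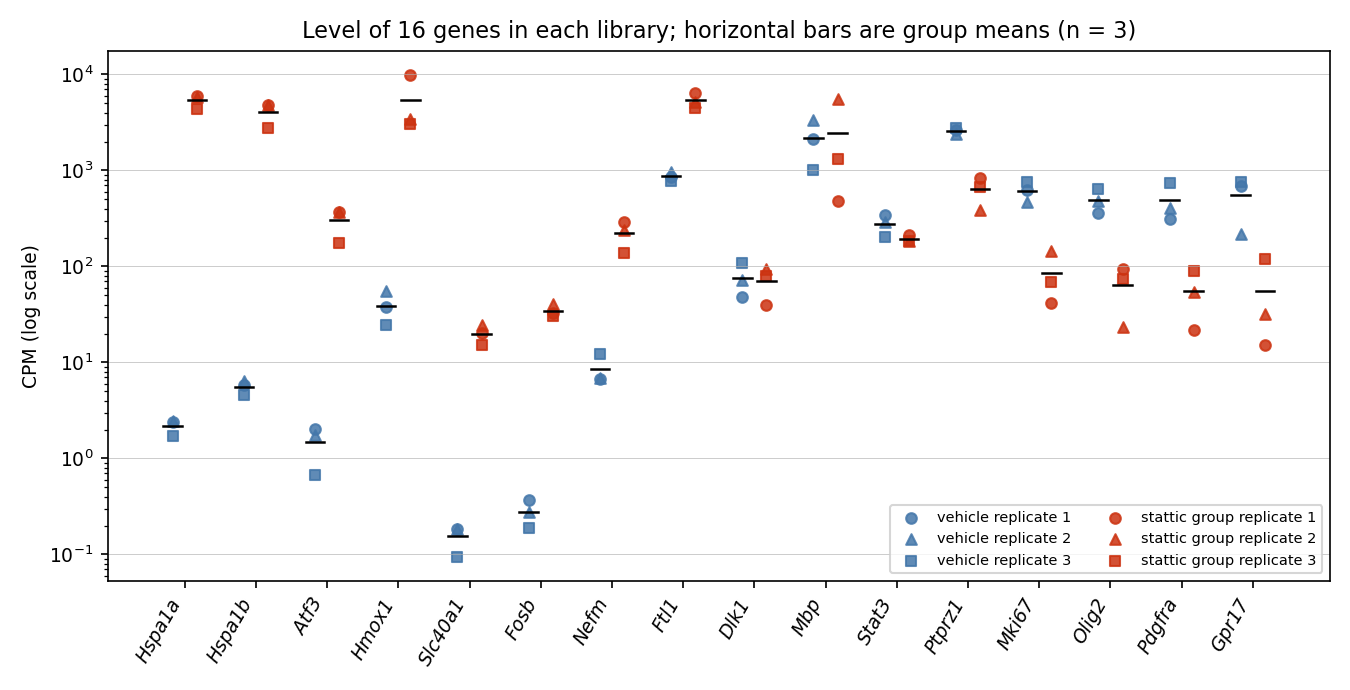
Each point is 1 library, with vehicle in blue and the stattic group in red, the marker shape gives the replicate, and black bars are group means (n = 3). The vertical axis is CPM on a log scale. Hspa1a lies at 1.71 to 2.47 CPM in vehicle and 4313 to 5963 CPM in the stattic group, Dlk1, Mbp and Stat3 overlap between the groups, and Ptprz1, Mki67, Olig2, Pdgfra and Gpr17 lie lower in the stattic group.

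The inducible heat shock chaperones were among the steepest rises in the comparison. Hspa1a, an inducible HSP70 that refolds damaged proteins, stood at 2.41, 2.47 and 1.71 CPM in vehicle and 5963, 5799 and 4313 CPM in the stattic group (log2 change 11.24, SE 0.64, adjusted p = 5.97e-06). Hspa1b, a nearly identical copy of that gene, went from 5.85, 6.40 and 4.57 to 4783, 4796 and 2733 CPM (log2 change 9.51, adjusted p = 5.97e-06). The related neighbouring gene Hspa1l went from 8.54, 6.49 and 6.76 to 2902, 2750.3 and 1633 CPM (log2 change 8.38). Read assignment among these 3 genes is uncertain, so their separate levels are too, but in each the stattic libraries were far above vehicle. Hspa8, the constitutive HSP70, rose from an already high level of 3028, 3324 and 2249 to 11178, 9038 and 7586 CPM (log2 change 1.69, adjusted p = 0.00372). Dnajb1, the HSP40 partner of HSP70, went from 55.8, 55.5 and 63.8 to 655, 538 and 447 CPM (log2 change 3.23, adjusted p = 0.000478). Of 20 heat shock genes tested, 13 rose and 0 fell, beside 14.7% and 10.2% of all genes. The groups did not overlap upwards in 18 (21.5% of all genes), and the median log2 change was 1.69.

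Promoter letters are shown for heat shock genes, for Maff and Osgin1 of the NRF2 list and for 2 genes described further on. All were picked from genes that held a match, and the motif shown is not always that of the factor behind the gene's list. RefSeq promoter windows (build GRCm38.p6, 250 bases before to 50 after each start) were found for 11076 of the tested genes, in 14269 windows. 4 motifs were searched on both strands: the heat shock element GAANNTTC, the antioxidant response element TGACNNNGC, the AP-1 site TGANTCA and the STAT site TTCNNNGAA. An AP-1 match that reads TGACTCA and is followed by GC is an antioxidant response element match as well, and the letters of the heat shock and STAT motifs can overlap. Capitals mark 1 match in each stretch below, which is read on the gene's strand. The Hspb1 stretch ends in another heat shock element match, left in lower case, that starts 97 bases before the gene's start.
Hspa1a (chr17:34972233-34972280, minus strand): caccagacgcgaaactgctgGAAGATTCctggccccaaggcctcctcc
Hspa1b (chr17:34959315-34959362, minus strand): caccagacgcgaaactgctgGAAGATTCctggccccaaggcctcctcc
Hspb1 (chr5:135887782-135887829, plus strand): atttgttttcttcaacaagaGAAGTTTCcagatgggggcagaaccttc
Hspe1 (chr1:55088044-55088091, plus strand): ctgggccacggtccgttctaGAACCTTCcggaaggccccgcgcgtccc
Dnaja1 (chr4:40722324-40722371, plus strand): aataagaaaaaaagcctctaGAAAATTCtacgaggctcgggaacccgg
Maff (chr15:79346489-79346537, plus strand): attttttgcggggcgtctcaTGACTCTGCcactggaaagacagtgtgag
Osgin1 (chr8:119437030-119437076, plus strand): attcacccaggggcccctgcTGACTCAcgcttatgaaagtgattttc
Il11 (chr7:4778213-4778259, minus strand): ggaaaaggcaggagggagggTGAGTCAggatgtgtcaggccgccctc
Socs3 (chr11:117969492-117969540, minus strand): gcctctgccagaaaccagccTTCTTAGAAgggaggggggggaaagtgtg

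The first 5 stretches carry the heat shock element, Maff the antioxidant response element, Osgin1 and Il11 the AP-1 site and Socs3 the STAT site. The Hspa1a and Hspa1b windows held the same base at 296 of 300 positions, and their printed stretches have the same letters, each with the match starting 104 bases before the start. Hspe1, the mitochondrial co-chaperonin that rose by a log2 change of 1.66, shares its site with Hspd1, its chaperonin partner on the opposite strand, for which the change was 0.81 (adjusted p = 0.133). The heat shock element was in 11 of the 20 windows (55.0%) of the heat shock list, which belong to 14 genes, 10 of them with a match. It was in 5.71% of windows of all tested genes, 5.95% of those called higher, 6% of those called at least 8-fold higher and 4.32% of those called lower. The antioxidant response element was in 14.0% of all windows, 17% of those called higher, 15.1% of those called at least 8-fold higher and 11.7% of those called lower. The AP-1 site was in 5.19% of all windows, 7.81% of those called higher, 12.9% of those called at least 8-fold higher and 3.84% of those called lower. The STAT site was in 6.71% of all windows, 6.95% of those called higher, 8.87% of those called at least 8-fold higher and 6.38% of those called lower. These are shares of windows that hold the letters and do not show that a factor binds there.

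Genes of protein disposal were higher too. Of 31 tested proteasome subunits, 23 rose and 0 fell, beside 14.7% and 10.2% of all genes. The median log2 change was 1.01, and the 3 stattic libraries lay above the 3 vehicle libraries in 30 subunits (21.5% of all genes). Psmd4, the ubiquitin receptor of the cap, went from 118, 127 and 133 to 320.1, 302 and 464 CPM (log2 change 1.52, adjusted p = 0.00290). Proteasome subunit transcripts are short, with a median of 1337 bases, and with length correction 8 were called higher and the median log2 change was 0.58. Leaving out stattic replicate 3 gave 20, and leaving out vehicle replicates 1, 2 and 3 gave 9, 14 and 13. Among 26 genes of autophagy and the lysosome 11 rose and 0 fell, beside 14.7% and 10.2% of all genes. Sqstm1, the adaptor that carries ubiquitinated cargo to autophagosomes, went from 197, 248 and 183 to 5478, 2365 and 1333 CPM (log2 change 3.87, adjusted p = 0.00619), and is an NRF2 target too. Gabarapl1, a protein of the autophagosome membrane, went from 118, 132 and 113 to 336, 348 and 333 CPM (log2 change 1.49, adjusted p = 0.00399). Leaving out vehicle replicates 1 and 3 took the autophagy count to 7 and 6.

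The integrated stress response, in which phosphorylation of eIF2 raises translation of the factor ATF4 and so the genes it controls, had one of the highest shares of members called. Of 30 tested 21 rose and 0 fell, beside 14.7% and 10.2% of all genes, with a median log2 change of 1.91. Fgf21, which encodes a stress-induced hormone, was among the members that rose, with no counts in vehicle. Atf3, a factor downstream of ATF4, went from 2.04, 1.74 and 0.667 to 369, 366 and 177 CPM (log2 change 7.67, SE 0.67, adjusted p = 6.98e-05). Cebpb, a bZIP factor that pairs with ATF4, went from 1.11, 1.92 and 0.381 to 40.9, 21.6 and 28.7 CPM (log2 change 4.72, adjusted p = 0.000691). Chac1 went from 2.23, 4.30 and 1.81 to 83.8, 78.3 and 51.1 CPM. In all 3 the lowest stattic library was more than 10 times the highest vehicle library. The count was 16 to 21 across the fits without 1 library and 20 with length correction. The unfolded protein response of the endoplasmic reticulum had fewer members past the test, and a median of 0.10, the value for all genes. Where 14.7% of all genes rose and 10.2% fell, 0 of 18 members were lower and 2 were higher. Those were Herpud1, a factor in disposal of misfolded proteins (12.6, 18.1 and 19 to 111, 123 and 90.4 CPM, adjusted p = 0.000405), and Xbp1, a factor spliced on this response (43.1, 24.8 and 24.8 to 86.9, 90.1 and 113 CPM, adjusted p = 0.00313). Without stattic replicate 3, 4 were called higher, and with scaling by library totals the median was -0.16, with 2 higher and 1 lower.

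Immediate early genes, which cells transcribe within minutes of a stimulus, were higher at 12 h. Of 26 tested 22 rose and 0 fell, beside 14.7% and 10.2% of all genes, and the median log2 change was 3.03. Fosb, an AP-1 subunit, went from 0.371, 0.274 and 0.190 to 32.9, 40.4 and 30.4 CPM (log2 change 6.89, SE 0.46, adjusted p = 9.11e-06). Junb, its partner, went from 6.77, 4.84 and 3.90 to 94.8, 83 and 130.4 CPM (log2 change 4.31, adjusted p = 9.11e-06). Ier2, an early response regulator, went from 9.37, 14.3 and 14.1 to 93.6, 91.8 and 92.8 CPM, with nearly equal levels in the 3 stattic libraries (log2 change 2.88, adjusted p = 7.49e-05). The members called without each library in turn numbered 16 to 21.

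Of 26 listed inflammatory genes controlled by NF-kB, 20 had enough counts to be tested. Of these 12 rose and 0 fell, beside 14.7% and 10.2% of all genes, with a median log2 change of 2.13. Among the 12, Tnf, Il6, Cxcl1 and Cxcl2, which encode inflammatory cytokines, had no counts in vehicle and 0.12 to 2.52 CPM in the stattic libraries. Without those 4 genes 8 of 16 were called higher and the median was 1.82. Il11, a cytokine of the IL-6 family, went from 0.186, 0.457 and 0.190 to 26, 16.2 and 11.2 CPM (log2 change 5.93, adjusted p = 0.000441). Nfkbiz, a nuclear co-regulator of NF-kB, went from 7.52, 9.32 and 5.71 to 54, 62.5 and 76.1 CPM (log2 change 3.09, adjusted p = 0.000110), and Relb, an NF-kB subunit, from 6.22, 6.85 and 5.33 to 15.1, 15.3 and 28.1 CPM (log2 change 1.66, adjusted p = 0.00450). Leaving out vehicle replicates 1, 2 and 3 in turn gave counts of 7, 8 and 7. Leaving out stattic replicate 1 gave 8, and stattic replicate 3 gave 14. Of 15 interferon-stimulated genes tested, 2 rose and 1 fell, against 14.7% and 10.2% of all genes, with a median of 0.25. Without stattic replicate 3, 3 of 17 were called higher and the median was 0.63. Mx2, an antiviral GTPase, and the chemokine Cxcl10 rose (log2 changes 1.78 and 3.35, adjusted p = 0.00944 and 0.00337), while Ifit2, an antiviral protein, fell from 13.8, 8.04 and 21.7 to 4.82, 2.30 and 2.64 CPM (log2 change -2.15, adjusted p = 0.0107).

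The IL-10 pathway itself was expressed at low receptor levels. Il10ra, the ligand-binding chain, stood at 0.278, 0.183 and 0.0952 CPM in vehicle and 1.26, 1.68 and 1.2 CPM in the stattic group (log2 change 2.81, adjusted p = 0.0182). Its adjusted p without vehicle replicates 2 and 3 was 0.0598 and 0.0722. Il10rb, the shared second chain, stood at 1.95, 2.56 and 1.90 CPM in vehicle and 4.61, 4.29 and 4.68 CPM in the stattic group (log2 change 1.08, adjusted p = 0.0453). It lost its call without any 1 of the 6 libraries, at adjusted p of 0.0617 to 0.136, and with length correction, at 0.105. Both chains thus read higher in the stattic group with little margin.

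Stat3, the factor that stattic inhibits, overlapped between the groups at 339, 291 and 204 CPM in vehicle and 215, 185 and 185 CPM in the stattic group (log2 change -0.51, adjusted p = 0.140). Stat6, the factor of IL-4 and IL-13, rose from 0.464, 0.457 and 0.190 to 2.72, 3.56 and 3.84 CPM (log2 change 3.14, adjusted p = 0.00296). Socs3, the feedback inhibitor that STAT3 induces, was at 14.4, 12.2 and 8.66 CPM in vehicle and 28.1, 26 and 16 CPM in the stattic group. All 3 stattic libraries were above the vehicle libraries, but the change did not pass the test (log2 change 0.99, SE 0.34, adjusted p = 0.0530). Leaving out stattic replicate 3 gave a log2 change of 1.2 and an adjusted p of 0.0271. Socs5, another member of the inhibitor family, rose from 31.9, 40.7 and 34.6 to 78.4, 103 and 71.4 CPM (log2 change 1.24, adjusted p = 0.00306). Over the receptor, kinase and STAT list 5 of 22 rose and 2 fell, beside 14.7% and 10.2% of all genes, with a median of -0.03. The fifth that rose was Socs1, a further feedback inhibitor, and those that fell were Ptpn11, a phosphatase of cytokine signalling, and Pias1, an inhibitor of STAT factors (adjusted p = 0.0488, 0.0459 and 0.0292), all 3 named after their values were seen. With length correction 3 rose and 0 fell, and scaling by library totals gave 3 higher, 4 lower and a median of -0.26. The counts without vehicle replicates 1, 2 and 3 were 3, 2 and 2 higher and 0 lower, and without stattic replicates 1 and 2 there were 3 higher each, with 1 and 0 lower.

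Of 26 genes induced by STAT3 in other settings, 5 rose and 0 fell, against 14.7% and 10.2% of all genes, with a median log2 change of 0.56. That number is near the share for all genes. They were Junb, Cebpb and Zfp36, an mRNA-degrading protein that went from 2.78, 4.02 and 2.57 to 68.4, 45.5 and 55.3 CPM (log2 change 4.17, adjusted p = 0.000119), and beside them Nfil3, a bZIP repressor, and Pim1, a survival kinase (adjusted p = 0.00156 and 0.0135). Junb and Zfp36 are also in the immediate early list and Cebpb in the integrated stress response list. There were 8 members higher and 1 lower without stattic replicate 3. Protein activity of STAT3 was not measured, and these levels do not show whether it was blocked.

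Several genes went from no or almost no counts to clear expression. Tac1, which encodes the neuropeptide substance P, had no counts in vehicle and 7.34, 6.39 and 9.72 CPM in the stattic libraries, at least 84-fold higher against a floor of 3 counts over the vehicle group. Hdc, the enzyme that makes histamine, had 4.61, 12.8 and 8.76 CPM and was at least 93.6-fold higher. Edn1, which encodes the vasoconstrictor endothelin-1, had 7.02, 7.75 and 5.28 CPM and was at least 71.8-fold higher. All 3 take part in signalling between cells and stayed at modest levels. Myod1, a muscle-lineage factor, had 2 counts in vehicle and 60.5, 9.64 and 11 CPM in the stattic group, where replicate 1 was several times the others (ratio 436, 95% counting interval 121 to 3599). Ampd1, the muscle AMP deaminase, and Tex19.1, a germline gene, each had 1 vehicle count and reached 7.13, 20.01 and 4.20 CPM and 15.4, 11.2 and 2.64 CPM. Their ratios were 337 (60.4 to 13293) and 314 (56.4 to 12411). These intervals and floors cover counting error only.

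Several genes that mark progenitors were lower, 10 of the 25 tested, beside 10.2% of all genes. Pdgfra, the receptor for the progenitor growth factor PDGF, stood at 313, 406 and 745 CPM in vehicle and 22, 54.4 and 90.1 CPM in the stattic group (log2 change -3.14, SE 0.74, adjusted p = 0.0118). Olig2, the lineage factor, went from 363, 477 and 644 to 93.5, 23.1 and 73.9 CPM (log2 change -2.96, SE 0.50, adjusted p = 0.00274). For both the highest stattic library was well below the lowest vehicle library. Ptprz1, a phosphatase with one of the highest levels in the progenitor list, went from 2651, 2376 and 2754 to 829.8, 391 and 678 CPM (log2 change -2.03, adjusted p = 0.00187). Gpr17, a receptor of progenitors committed to differentiate, went from 683, 218 and 762 to 15.2, 31.6 and 118 CPM (log2 change -3.33, SE 1.00, adjusted p = 0.0306). Its call was lost with length correction (adjusted p = 0.0693) and without stattic replicates 1 and 2 and vehicle replicates 1 and 3 (0.0666, 0.0880, 0.0756 and 0.0775). Sox10, a factor of the whole oligodendrocyte lineage, was at 354, 274 and 363 CPM in vehicle and 30.6, 129.6 and 238 CPM in the stattic group (log2 change -1.32, adjusted p = 0.188). Its groups did not overlap, but the stattic libraries ranged widely.

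In the progenitor list 10 of 25 fell and 0 rose, beside 10.2% and 14.7% of all genes, and the median log2 change was -1.12. The stattic libraries were all below the vehicle libraries in 15 members (19.6% of all genes). The list summed to 8818, 7778 and 10181 CPM in vehicle and 3254, 2570.1 and 4416 CPM in the stattic group. With stattic replicate 3 left out, 13 fell and the median was -1.47. There were 6 and 5 without vehicle replicates 1 and 3. With length correction 8 fell and 1 rose.

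The number of myelin genes called lower was near the share for all genes. Mbp, myelin basic protein, stood at 2129.8, 3342 and 1013 CPM in vehicle and at 483, 5564 and 1304 CPM in the stattic group (log2 change 0.18, SE 1.01, adjusted p = 0.913). Stattic replicate 2 was the highest of the 6 libraries and replicate 1 the lowest. Of 23 members tested, 3 fell and 0 rose, where 10.2% of all genes fell and 14.7% rose. Myrf, the factor that drives myelin genes, went from 349, 281 and 181 to 40.03, 107 and 88.1 CPM (log2 change -1.79, adjusted p = 0.0326). Omg, a surface glycoprotein of myelin, went from 59.6, 35.5 and 83.3 to 2.83, 7.86 and 13.4 CPM (log2 change -2.89, adjusted p = 0.00764), and Zfp488, a differentiation factor, from 128, 106 and 107 to 19.8, 58.4 and 20.3 CPM (log2 change -1.79, adjusted p = 0.0237). All 3 were lower in each stattic library than in any vehicle library. Omg kept its call in each of the fits tried, while Myrf lost its call when stattic replicates 1 or 3 or vehicle replicates 1 or 2 were left out (0.0545 to 0.103) and Zfp488 for stattic replicates 1 or 3 or any vehicle library (0.0519 to 0.0723). The count of members lower was 1 without stattic replicates 1 or 3 or vehicle replicates 1 or 2, 2 without vehicle replicate 3 and 4 without stattic replicate 2, and 2 members were called higher without stattic replicate 1. The list's sum was 9576, 10002 and 5499.7 CPM in vehicle and 4286, 18404 and 9132 CPM in the stattic group.

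**Figure D3:**
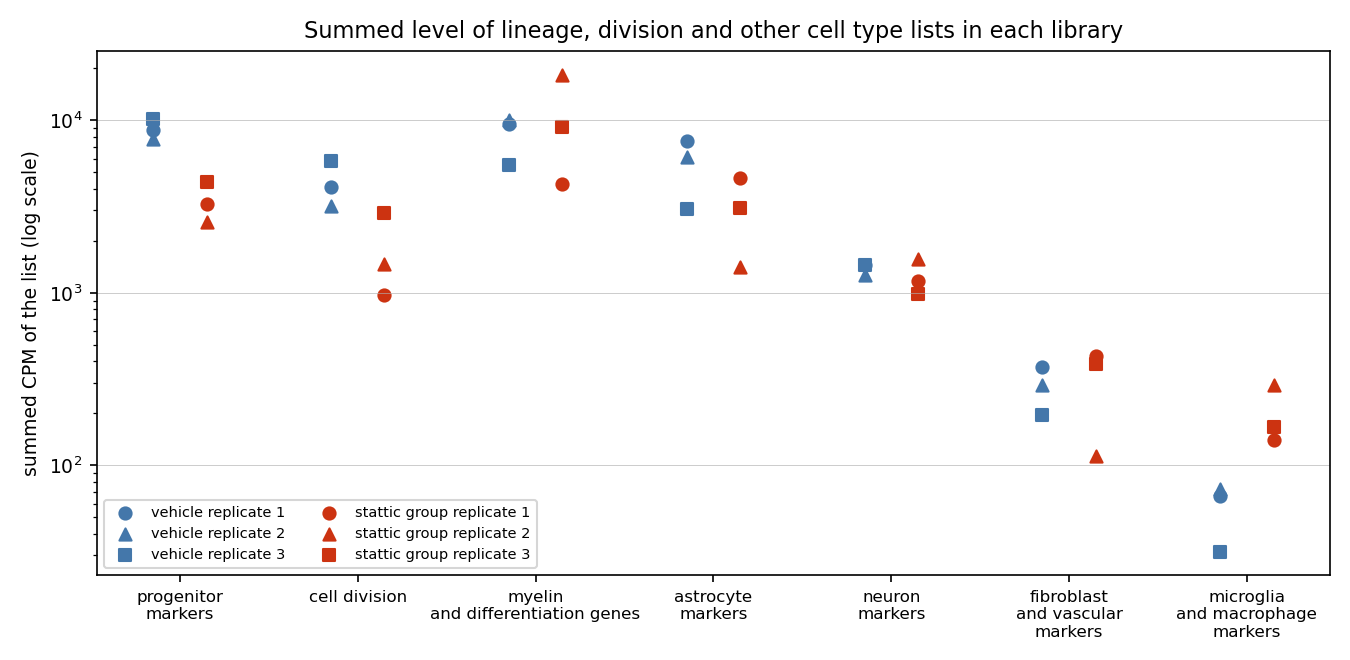
Each point is the summed CPM (log scale) of 1 gene list in 1 library, blue for vehicle and red for the stattic group, with marker shape for the replicate. Progenitor and cell division sums lie lower in the stattic group, microglia and macrophage sums higher, and the other sums overlap, with stattic replicate 2 highest for myelin genes and lowest for astrocyte markers.

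Cell division genes were lower. Mki67, the marker of cycling cells, went from 629, 465 and 749 to 41.3, 146 and 69.1 CPM (log2 change -2.84, SE 0.52, adjusted p = 0.00394). Cenpf, a kinetochore protein, went from 132, 111 and 181 to 11.3, 34.1 and 22.9 CPM (log2 change -2.63, adjusted p = 0.00381). Rrm2, the subunit of the enzyme that makes DNA precursors, went from 172, 143 and 328 to 34.2, 24.4 and 70.3 CPM (log2 change -2.32, adjusted p = 0.00291). The groups did not overlap for any of these. Of 34 members 17 fell and 0 rose, beside 10.2% and 14.7% of all genes, with a median log2 change of -1.25. Stattic replicate 3 reduced the number of calls here, since without it 30 of 34 fell and the median was -1.92. The list summed to 4099.6, 3173 and 5816 CPM in vehicle and 970.4, 1469 and 2894 CPM in the stattic group, so replicate 3 held the highest sum of its group. Fewer members were called when stattic replicates 1 and 2 (10 and 8) and vehicle replicates 1 and 3 (9 and 7) were left out in turn.

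Other large falls were in genes outside these lists. Tk1, the thymidine kinase of dividing cells, went from 23.3, 15.6 and 38.8 to 1.47, 1.47 and 6.12 CPM (log2 change -3.11, adjusted p = 0.00318). Lfng, which modifies the Notch receptor, went from 70.1, 52.1 and 93.3 to 12.4, 1.89 and 11.8 CPM (log2 change -3.05, adjusted p = 0.00325). Slitrk1, a neuronal adhesion protein, went from 8.35, 11.3 and 16.6 to 0.524, 1.47 and 1.2 CPM (log2 change -3.49, adjusted p = 0.00526). None of these groups overlapped. The largest fitted fall was of Clca3a1, a chloride channel regulator, but its vehicle libraries held 33.7, 8.77 and 0.857 CPM against 0.314, 0.419 and 0.600 CPM, so it rests mostly on vehicle replicate 1. Its adjusted p was 0.0849 without that library and 0.0540 without stattic replicate 2. Tcf19, Slfn9, St6galnac5, Haspin and D17H6S56E-5 fell by 3.03 to 3.25 on the log2 scale.

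Among called genes the falls in mean CPM were led by Ptprz1, Tnr, Syt11, Ccnd2, Qk and Mki67. Tnr, an extracellular matrix protein of oligodendrocyte lineage cells, went from 1402, 911 and 998 to 126, 260.1 and 171 CPM (log2 change -2.57, adjusted p = 0.0243). Its call was lost without stattic replicates 1 and 3 and vehicle replicates 1 and 3, at 0.0525 to 0.0725. Qk, an RNA-binding protein that myelination needs, went from 1465, 1306 and 1443 to 509, 663 and 554 CPM (log2 change -1.29, adjusted p = 0.00956). Ccnd2, a cyclin of the G1 phase, went from 1362, 914 and 1822 to 574, 113 and 440.4 CPM (log2 change -1.86, adjusted p = 0.0188). It lost its call without vehicle replicates 1 and 3 (0.0519 and 0.0681) and with length correction (0.0586). Syt11, a vesicle protein, went from 1169, 1177 and 924 to 478, 313 and 238 CPM (log2 change -1.67, adjusted p = 0.00421).

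Ion channel and synaptic genes, which have long transcripts (median 7431 bases), were lower in 10 of 30 and higher in 1. Over all genes 10.2% were lower and 14.7% higher. The median log2 change of the list was -0.89. Length correction left 8 lower and a median of -0.46. Kcnj10, the inward rectifier that sets the glial resting potential, went from 240.1, 136 and 120.1 to 33.9, 29.9 and 22.6 CPM (log2 change -2.52, adjusted p = 0.000816). Ank3, the scaffold ankyrin-G, went from 159, 131 and 134 to 43.7, 58.7 and 32.2 CPM (log2 change -1.66, adjusted p = 0.00198), and Nlgn1, a synaptic adhesion protein, from 55.9, 49.6 and 62.9 to 19, 17.1 and 12.7 CPM (log2 change -1.79, adjusted p = 0.00372). All 3 were called with length correction too. The member that rose was Kcna1, a potassium channel (log2 change 2.47, adjusted p = 0.00794). Leaving out vehicle replicate 1 or 2 gave 6 lower each time.

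Short-transcript gene groups need care because of stattic replicate 3. Of 27 ribosomal protein genes tested (median length 794 bases), 24 rose and 0 fell, beside 14.7% and 10.2% of all genes. The median log2 change was 1.45. Rps3, of the small subunit, stood at 411, 549 and 412 CPM in vehicle and 992, 1243 and 2231 CPM in the stattic group, where replicate 3 was the highest (log2 change 1.70, adjusted p = 0.00657). Rpl27, of the large subunit, went from 148, 157 and 145 to 298, 328 and 503 CPM (log2 change 1.33, adjusted p = 0.00668). Without replicate 3, 19 rose and the median was 0.84, and with length correction 18 rose and it was 0.59. Without vehicle replicates 1, 2 and 3 the count was 6, 13 and 11. For the respiratory chain (28 nuclear genes, median length 1041 bases) 5 rose and 0 fell, where 14.7% of all genes rose and 10.2% fell. Those 5 were Cox4i1, Cox5b, Ndufa1, Ndufa2 and Sdhb, subunits of complexes of the chain, at adjusted p of 0.0218 to 0.0496. Without stattic replicate 3, 1 was higher and 1 lower, with length correction the same numbers were found, and without any 1 of the vehicle libraries 0 were higher. Without stattic replicate 1, 14 were called higher, and scaling by library totals gave 2 higher and 2 lower. Ndufa2, a complex I subunit, was at 46.9, 45.3 and 45.9 CPM in vehicle and 51.4, 65.9 and 207 CPM in the stattic group, so its rise (log2 change 1.23, adjusted p = 0.0473) lay mostly in replicate 3, and its log2 change was 0.34 without that library.

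Among 24 p53 targets 12 rose and 0 fell, beside 14.7% and 10.2% of all genes, with a median of 1.05. Gadd45b, a stress-induced growth arrest gene, went from 0.835, 2.28 and 2.38 to 88, 63.9 and 51.4 CPM (log2 change 5.20, adjusted p = 0.000441), and Plk3, a stress-response kinase, from 5.20, 10.3 and 6.09 to 55.3, 60.6 and 69.7 CPM (log2 change 3.10, adjusted p = 7.85e-05). With vehicle replicates 1, 2 and 3 left out in turn the p53 count was 4, 5 and 5. In these fits the number of all genes called higher fell from 2048 to 916, 1152 and 1026. The p53 count was 7 with stattic replicate 1 left out. Among 26 genes of cholesterol synthesis 8 rose and 0 fell, beside 14.7% and 10.2% of all genes. Insig1, which holds back the sterol sensor, went from 149, 94.8 and 112 to 274, 578 and 659.8 CPM (log2 change 2.08, adjusted p = 0.00728), and Cyp51, a demethylase of the pathway, from 325, 262 and 258 to 629, 845 and 1447 CPM (log2 change 1.79, adjusted p = 0.00545). In this list 14 were called with stattic replicate 1 left out and 5 with stattic replicate 3 left out. For vehicle replicates 1, 2 and 3 the counts were 4, 3 and 4.

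In the hypoxia and glycolysis list 7 of 28 rose and 2 fell, beside 14.7% and 10.2% of all genes. Slc2a3, a glucose transporter, went from 16.8, 21.4 and 22.4 to 43.7, 31.8 and 56.7 CPM (log2 change 1.13, adjusted p = 0.00777), while Egln1, the oxygen-sensing hydroxylase, went from 79.1, 88 and 101 to 41.7, 36.7 and 39.97 CPM (log2 change -1.18, adjusted p = 0.00246). The other member that fell was Pdk1, a kinase that holds back pyruvate oxidation (adjusted p = 0.0176). The members higher were 2, 3 and 2 without vehicle replicates 1, 2 and 3. In the AMPK and fatty acid list 2 of 20 fell and 0 rose, the first near the 10.2% of all genes, with Camkk2, a kinase upstream of AMPK, going from 32.4, 38.8 and 35.2 to 12.4, 9.01 and 13.6 CPM (log2 change -1.61, adjusted p = 0.00142) and Prkag2, an AMPK subunit, at a log2 change of -0.80 (adjusted p = 0.0331). The call of Prkag2 was lost for stattic replicate 2 and vehicle replicates 1 and 2 (0.0764 to 0.147). With length correction 4 of that list rose and 2 fell. Without stattic replicate 1 there were 1 higher and 4 lower, and without stattic replicate 3 there were 3 higher and 4 lower. Of 12 metallothionein and metal transport genes 1 rose and 1 fell, beside 14.7% and 10.2% of all genes. Atp7a, a copper exporter, was called higher although stattic replicate 3 lay within the vehicle range (25.1, 29.1 and 21.1 against 63.2, 111 and 22.3 CPM, adjusted p = 0.0476), and Slc39a10, a zinc importer, was called lower (log2 change -0.69, adjusted p = 0.0332). Atp7a lost its call when any library but stattic replicate 3 was left out (0.0659 to 0.213), and Slc39a10 for stattic replicate 2 or any vehicle library (0.0646 to 0.107).

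**Figure D4:**
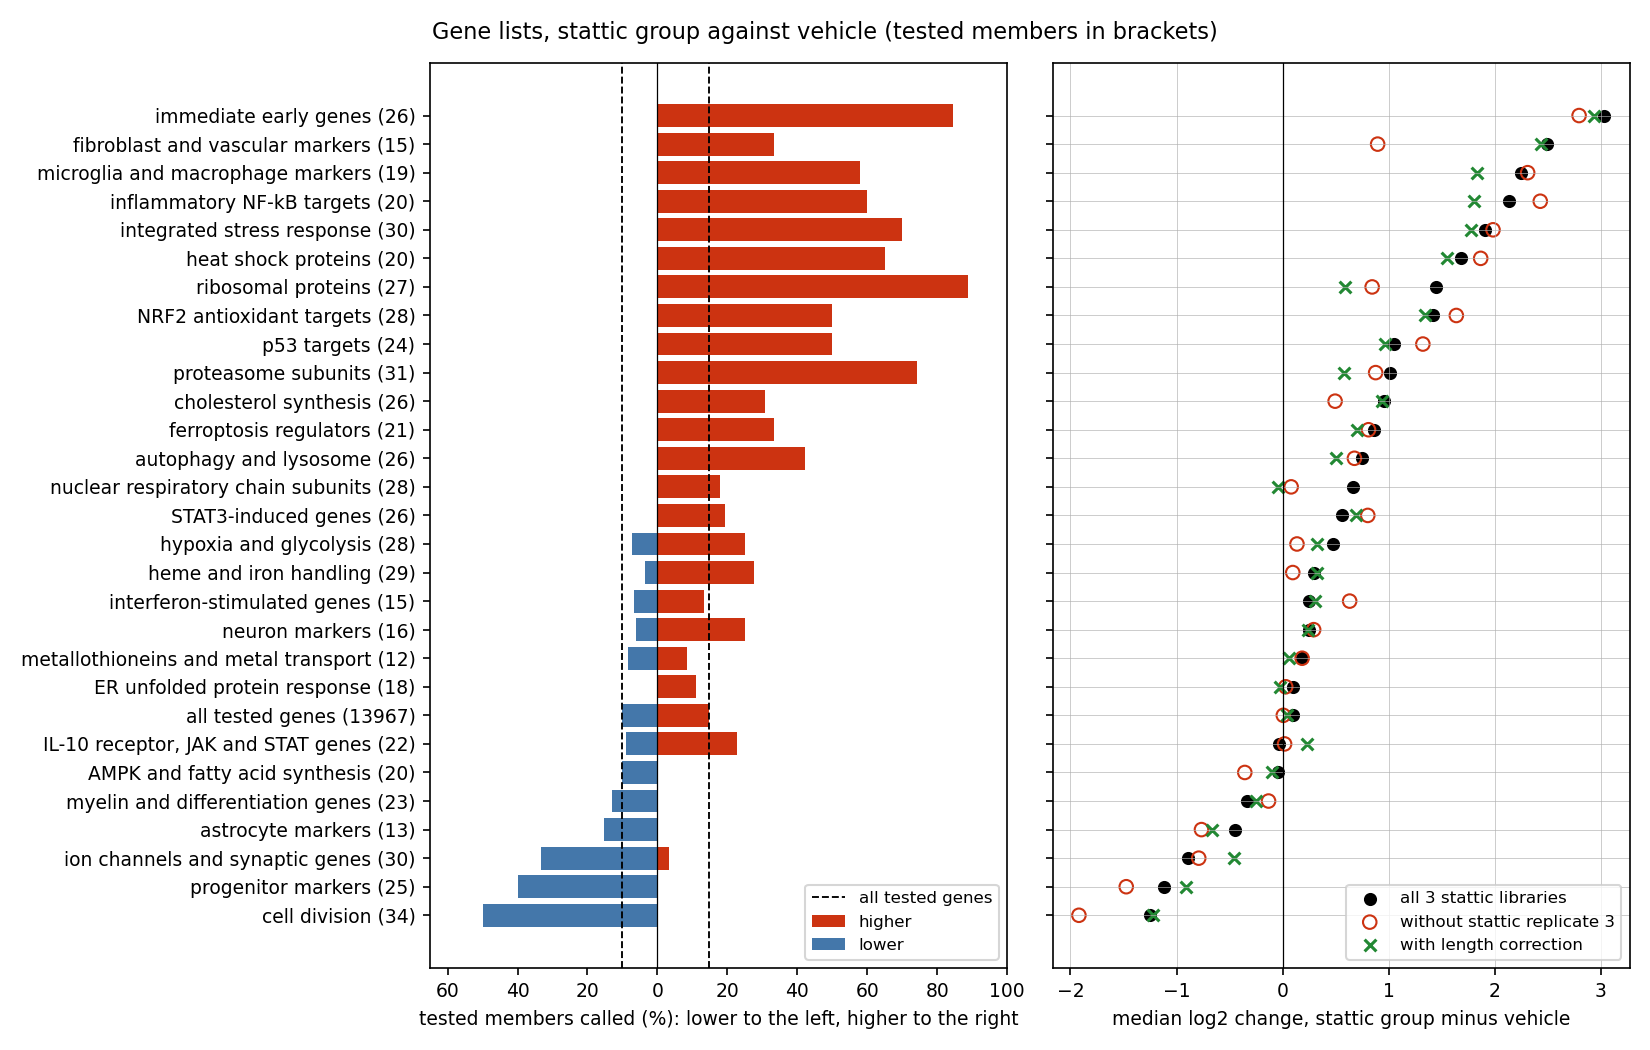
Left, for each of the 28 lists and all tested genes, bars give the percentage of tested members called higher (to the right) or lower (to the left), with dashed lines at 14.7% and 10.2% for all tested genes. Right, points give the median log2 change with all libraries (filled), without stattic replicate 3 (open) and with length correction (crosses), where the respiratory chain median goes from 0.67 to 0.08 and -0.04 and the fibroblast and vascular median from 2.49 to 0.90 without replicate 3. Of the 15 fibroblast and vascular markers tested, 5 were above 1 CPM in each vehicle library.

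Markers of other cell types moved with some of these groups. Of 19 microglia and macrophage markers tested 11 rose and 0 fell, beside 14.7% and 10.2% of all genes. The median log2 change was 2.25. The list summed to 66.2, 72.5 and 31.6 CPM in vehicle and 139.7, 294 and 166 CPM in the stattic group. Cd68, a lysosomal protein of macrophages, went from 3.90, 8.32 and 1.52 to 25, 29 and 19.1 CPM (adjusted p = 0.00695), and Itgam, the integrin CD11b, from 1.95, 1.10 and 0.286 to 3.88, 8.27 and 4.56 CPM (adjusted p = 0.0164, and 0.0520 and 0.0542 without stattic replicate 2 and vehicle replicate 2). None of the list's 20 genes was at 0 in all 6 libraries, but levels stayed low, with 7 of the 19 tested above 1 CPM in each vehicle library and 15 in each stattic library. Markers near 0 in vehicle could be called higher but hardly lower, which weighs on the count of 0 lower and on the median. Aif1, a defining microglial gene, was at 0.186, 0.183 and 0 CPM in vehicle and 0.524, 1.68 and 0.840 CPM in the stattic group. With length correction 5 were called, and 3 without stattic replicate 2. The count was 4, 3 and 3 without vehicle replicates 1, 2 and 3. Their part in the inflammatory and lysosomal results was not tested.

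Of 15 fibroblast and vascular markers tested 5 rose and 0 fell, beside 14.7% and 10.2% of all genes. Most of those that rose did so from under 1 CPM. Only 5 of the 15 were above 1 CPM in each vehicle library, against 10 in each stattic library. Markers near 0 in vehicle passed the expression filter through the groups with hemin, so they could be called higher but hardly lower. The list's sums overlapped, at 373, 293 and 197 CPM in vehicle and 431, 113 and 387 CPM in the stattic group. Pecam1, an endothelial and leukocyte adhesion protein, went from 0.464, 0.366 and 0.286 to 14.4, 33.5 and 10.1 CPM (log2 change 5.65, adjusted p = 0.000625). Cdh5, the endothelial cadherin, was at 0.186, 0.0914 and 0.667 CPM in vehicle and 0.943, 0.628 and 13 CPM in the stattic group, so its call (adjusted p = 0.0352) rested on stattic replicate 3 and was lost without it (0.334) and without any vehicle library (0.0580 to 0.115). The others that rose were Dcn and Col1a2, matrix genes, and Kdr, an endothelial growth factor receptor (adjusted p = 0.0235, 0.0484 and 0.0366). Leaving out vehicle replicates 2 and 3 took Dcn to 0.0763 and 0.0790. Cldn5, a defining endothelial tight junction gene, stayed at 0.24 CPM or less in each of the 6 libraries. Without stattic replicate 3, 3 markers of the list were higher and 1 lower, and without vehicle replicates 1, 2 and 3 the number higher was 3, 1 and 1.

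Of 13 astrocyte markers 2 fell and 0 rose, where 10.2% of all genes fell and 14.7% rose. Slc4a4, a bicarbonate transporter, went from 533, 379 and 326 to 115, 18.9 and 78.3 CPM (adjusted p = 0.00942), and Slc1a2, a glutamate transporter, from 408, 277 and 158 to 122, 23.5 and 56.2 CPM (adjusted p = 0.0201, and 0.0524 and 0.0805 without stattic replicate 3 and vehicle replicate 1). The list's sums overlapped, at 4620.0, 1419 and 3096 CPM in the stattic group. Of 16 neuron markers 4 rose and 1 fell, beside 14.7% and 10.2% of all genes. The sums of the neuron list overlapped too, at 1442, 1267 and 1450.4 against 1169, 1579 and 978 CPM. Nefm, a neurofilament subunit, went from 6.77, 6.85 and 12.2 to 291, 239 and 138 CPM (log2 change 4.69, adjusted p = 0.000120), and Nefl, another subunit, from 7.79, 8.50 and 16.6 to 79.3, 87.6 and 55.1 CPM (log2 change 2.76, adjusted p = 0.00292). Snap25, a synaptic fusion protein, and Slc17a7, a glutamate carrier of synaptic vesicles, rose as well (adjusted p = 0.0281 and 0.0446). Dcx, a microtubule protein of immature neurons, fell from 193, 149 and 169 to 28.9, 52.6 and 36.6 CPM (log2 change -2.11, adjusted p = 0.00261). Rbfox3, the nuclear marker of mature neurons, was at 2.97, 2.92 and 1.14 CPM in vehicle and 1.68, 4.29 and 2.40 CPM in the stattic group and did not pass the test. Leaving out stattic replicate 2 or vehicle replicates 2 or 3 gave 2 neuron markers higher.

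The stattic group was last compared directly with the other hemin groups, to show where it differs from them. Against hemin with IL-10, 0 of 13967 genes (0%) were called by edgeR's quasi-likelihood test, with 523 at an unadjusted p under 0.05 and 0 called by DESeq2. Against hemin alone 0 genes (0%) were called, with 481 at an unadjusted p under 0.05, and DESeq2 called 1. Both 523 and 481 are fewer than chance alone would give over 13967 tests. Plekhb1 and Anln had among the smallest p-values against hemin with IL-10. Plekhb1, a membrane adaptor, was at 46.4, 77.3 and 67 CPM with hemin and IL-10 and 91.6, 200.5 and 185 CPM with stattic added (log2 difference 1.32, 95% CI 0.64 to 2.00, adjusted p = 0.921). Anln, an actin-binding protein of cell division and myelin sheaths, was at 27.3, 34.6 and 39.8 CPM with hemin and IL-10 and 17.6, 16.4 and 18.8 CPM with stattic added (log2 difference -0.94, 95% CI -1.45 to -0.44, adjusted p = 0.921). For both genes the groups did not overlap. Plekhb1, Anln and, below, Tspan17 were picked by their p-values, so their intervals and lack of overlap give no independent support for a difference. Against vehicle, Anln fell by 1.57 on the log2 scale (adjusted p = 0.00156).

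Dlk1, which encodes a transmembrane relative of the Notch ligands, had the smallest p against hemin alone. It stood at 47.8, 72.9 and 109 CPM in vehicle, 8.82, 7.07 and 5.81 CPM with hemin, 44.5, 67 and 96.2 CPM with hemin and IL-10 and 39.9, 95.1 and 78.9 CPM with stattic added. The stattic group was above hemin in every library (log2 difference 3.30, 95% CI 2.37 to 4.22, adjusted p = 0.0655). Deviations of same-numbered libraries of these groups correlated at 0.35, 0.39 and 0.17, but hemin replicate 3 correlated more with stattic replicate 2 (0.29). Whether these libraries are paired is therefore uncertain. With the replicate number as a block on all 12 libraries the adjusted p of Dlk1 was 0.0259, the 1 gene called. Over all the alternatives it ranged from 4.47e-11 with DESeq2 to 0.392 with limma-voom. Against vehicle the log2 change was -0.10 (95% CI -0.94 to 0.73, adjusted p = 0.866) and against hemin with IL-10 it was 0.04 (95% CI -0.79 to 0.88). Tspan17, a tetraspanin, came next after Anln in the comparison with hemin, at 7.24, 7.69 and 10.7 CPM with hemin and 13.1, 32.8 and 26.5 CPM in the stattic group (log2 difference 1.5, 95% CI 0.76 to 2.23, adjusted p = 1.00).

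Socs3 was at 26.9, 28 and 35.1 CPM with hemin, 17.7, 26.7 and 10.9 CPM with hemin and IL-10 and 28.1, 26 and 16 CPM with stattic added. Its log2 difference from hemin with IL-10 was 0.34 (95% CI -0.40 to 1.08). The myelin list had a median log2 difference of 1.17 from hemin with IL-10 and 1.09 from hemin, where all genes had 0.02 and 0.04, with 0 members called. Its sums were 1887, 4217 and 5659.6 CPM with hemin and 2007, 5374 and 4737 CPM with hemin and IL-10, and stattic replicates 2 and 3 were above all of these. The microglia and macrophage list had a median of 1.77 from hemin with IL-10 and 0.10 from hemin, at 316, 142 and 104 CPM with hemin and 109.9, 71.2 and 51.6 CPM with hemin and IL-10. Astrocyte, neuron, and fibroblast and vascular lists had medians of 0.18, 0.61 and 0.44 from hemin with IL-10.

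**Figure D5:**
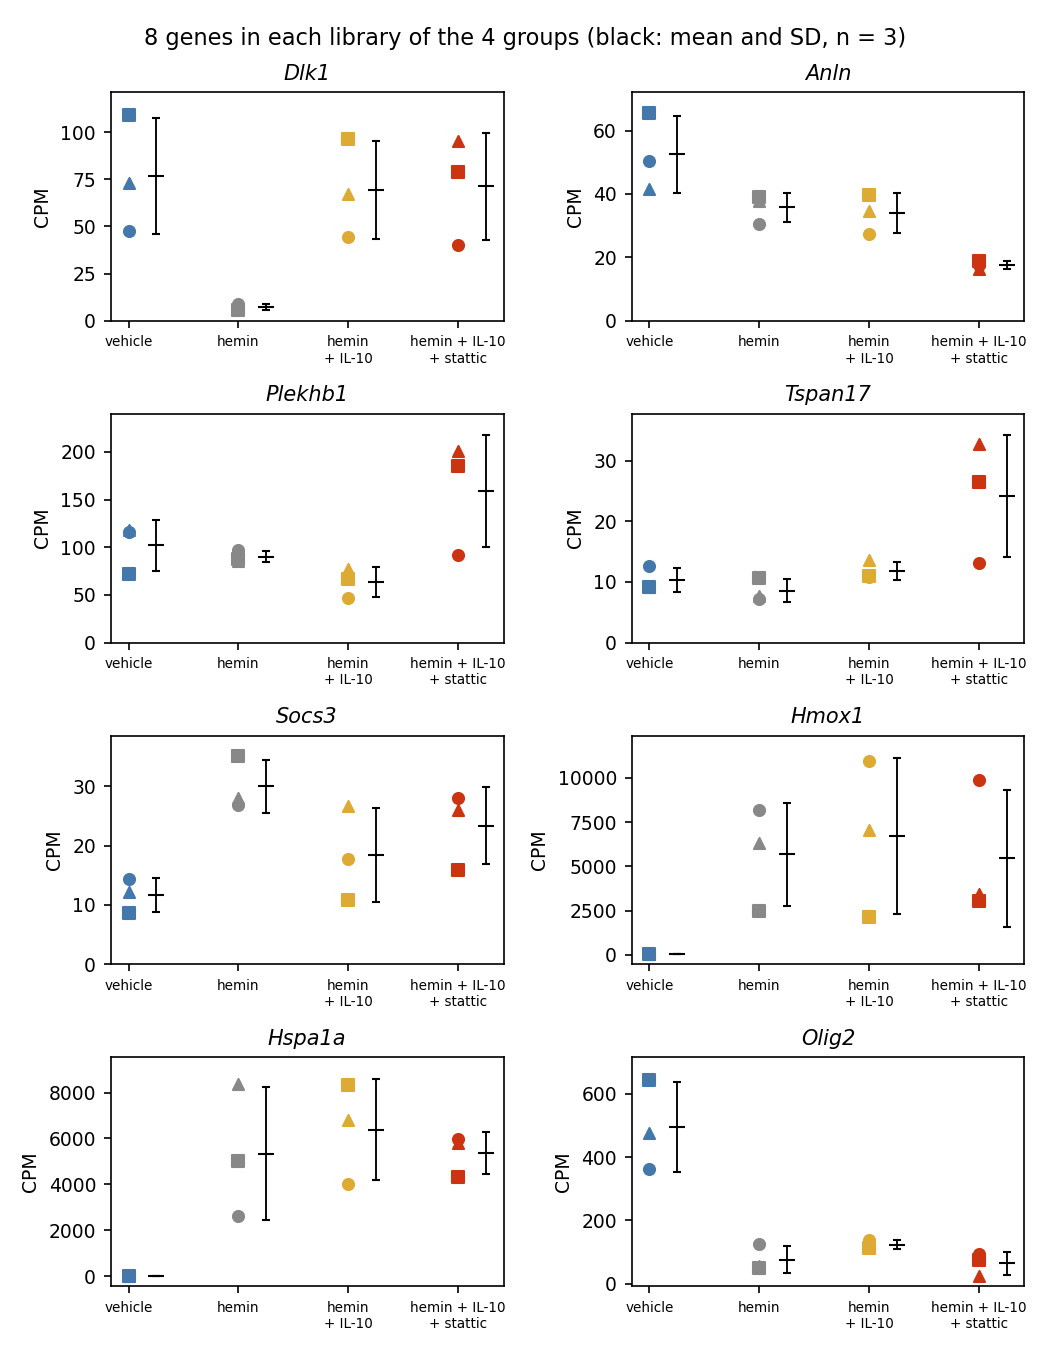
Each panel gives the CPM of 1 gene in the 3 libraries of each of the 4 groups, with marker shape for the replicate and the mean and SD in black. Dlk1 lies at 5.81 to 8.82 CPM with hemin and at 39.9 CPM or more in the other groups, Anln lies lowest in the stattic group, and Hmox1, Hspa1a and Olig2 differ between vehicle and the groups that received hemin, while the stattic group overlaps at least 1 of the other hemin groups.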

How the data were processed

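Total RNA libraries made by the dUTP second-strand method, per the labels' protocols, gave 1 gene table per library. The submitters' processing notes name CASAVA, HISAT, Bowtie, Bowtie2, TopHat, Cufflinks, StringTie and RSEM with no role or version. Neither the genome build nor a strand setting of the counting is given in the sources used here, and antisense and overlapping genes are uncertain. The deposited tables hold expected counts, which the authors' software estimated per gene, FPKM values, per the file headers, and transcript length. Genes absent from a table were set to 0.

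Expected counts were rounded and tested with edgeR 4.0.16 (R 4.3.3): TMM scaling, the default expression filter, robust quasi-likelihood fit over all 12 libraries with 1 mean per group, Benjamini-Hochberg adjustment over 13967 genes. CPM are counts per 1000000 of the TMM-scaled library total. The script was tested on simulated data. Alternatives used DESeq2 1.42.0, limma 3.58.1, log2(FPKM + 1), other scalings and filters, the 6 libraries alone, a replicate block, length correction (a lowess offset per library, span 0.3) and each library left out. Deviations of same-numbered libraries correlated at 0.20, 0.10 and 0.28 with vehicle, where 1 value fell under 0.1, and at 0.35, 0.39 and 0.17 with hemin alone. With hemin and IL-10 they correlated at 0.64, -0.05 and 0.48. The main fit paired no libraries, and the replicate block gave the replicate number to all 12 libraries. No 2 libraries within vehicle or within the stattic group agreed within counting noise.

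Members and lists were chosen with earlier results of these data known. Genes named were, among called genes with a mean of at least 5 CPM and groups that did not overlap, the 12 largest log2 changes and 6 largest CPM changes in each direction, leaving out predicted gene models; the 3 smallest adjusted p in each list; a fixed set around hemin, IL-10 and progenitors; and the 3 smallest p in each direct comparison. Genes given only to account for a list's count, a marker check or a promoter match were added after their values were seen. Some genes that these rules took are not reported here. For 99.1% of gene symbols a RefSeq entry was found.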

Additional observations from a re-analysis of the deposited data

How the results depend on the processing

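The number of genes higher than vehicle was 2048 and lower 1424. With limma on log2(FPKM + 1) these were 956 and 2366, with the 6 libraries alone 958 and 692, and with library totals 2208 were lower. With the replicate block 2438 were higher and 1984 lower, and with the block and length correction 2142 were lower. DESeq2 gave 2595 and 1825. Leaving out 1 library gave 916 to 2186 higher and 692 to 1724 lower. Of the 3472 calls, 2838 were kept with library totals, 2571 with length correction and 1576 without vehicle replicate 1, and 0 turned into a call of the other direction in any alternative. Against hemin the count was 1 in place of 0 with DESeq2, with no filter, with the replicate block, and with the block and length correction, and 0 to 1 with 1 library left out, and the cause was not tested. Against hemin with IL-10 it was 0 throughout. The log2 change of Ndufa2 was 1.23 and turned to -0.0243 with length correction and no stattic replicate 3, a pairing of choices added after seeing the data. Of the 121 named genes 109 were called, 85 of them in each fit without 1 library and 84 in each alternative run that tested them. Depth limits genes at few counts, such as Tac1 or Cldn5, whose floors and ratios cover counting error only.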
